A study of Mus musculus with 15 samples.

Results

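The genes described here are 35 interferon-response genes, transcripts that interferons are known to induce, listed by symbol and found on the arrays through each probe's gene name, RefSeq accession or older symbol. Of the 35, 34 were represented, by 52 probes, and the probe with the highest mean signal over all arrays stood for its gene. Xaf1 had no matched probe and was not analysed here. All 34 probes used were well above background on all 15 arrays, none was saturated, and all 34 genes were among the 20305 genes tested. Uteri came from ovariectomized mice of the CD-1 strain, an outbred stock, so the ovariectomy and its loss of ovarian oestrogen are shared by every group. The 5 groups held 3 arrays each. Vehicle mice received 100 µl of saline, and the other groups received 250 ng of E2 or of E3 in 100 µl of saline, with the uterus taken after 2 h or after 24 h. The abbreviations E2 and E3 are read here by their usual meaning, estradiol and estriol; estriol differs from estradiol by an added hydroxyl group on its D ring. Neither the mice's ages nor when the vehicle uteri were collected is given in the sources used here. Nothing in the labels says whether the 3 arrays of a group came from separate animals, so the p-values below measure the spread between these arrays, which may be technical.

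Cells detect foreign nucleic acid with sensors such as RIG-I (Ddx58), MDA5 (Ifih1), LGP2 (Dhx58) and ZBP1, and answer by secreting interferons. Type I and type III interferons signal through JAK kinases to a complex that includes STAT2 and IRF9 and binds the interferon-stimulated response element (ISRE) in front of its target genes, while interferon gamma acts at GAS elements. The induced products block viral replication, cut and present peptides on MHC class I and attract T cells, and USP18, SOCS1 and SOCS3 restrain the signal. In the female reproductive tract the epithelium makes interferon epsilon without infection, and its level is known to follow sex hormones.

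The promoters of several members are shown because the short ISRE core, which the list was not chosen by, is readable in them. The core was searched as a pair of GAAA blocks with a gap of 2 bases of any kind between them, which reads TTTC on the other strand, in the RefSeq table of windows from 250 bases before to 50 bases after each gene's start (GRCm38.p6). Of the 35 members, 29 had a window, and 16 of these 29 (55.2%) held a core, against 3.99% of 27025 genes with a window. The stretches below come from members that fell with both oestrogens at 2 h, printed 5′ to 3′ on the gene's strand and ending before the start of the gene, with each core in capitals.
Rsad2, chr12:26456543-26456592, minus strand: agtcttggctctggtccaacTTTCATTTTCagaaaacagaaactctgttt
Ifit1, chr19:34640765-34640833, plus strand: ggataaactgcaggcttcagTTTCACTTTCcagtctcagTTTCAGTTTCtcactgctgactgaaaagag
Ifit3, chr19:34583353-34583436, plus strand: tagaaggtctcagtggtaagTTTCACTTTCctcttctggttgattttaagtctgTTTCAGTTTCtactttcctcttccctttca
Cxcl10, chr5:92349073-92349122, minus strand: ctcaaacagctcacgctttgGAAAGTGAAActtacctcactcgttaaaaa
Gbp3, chr3:142559979-142560034, plus strand: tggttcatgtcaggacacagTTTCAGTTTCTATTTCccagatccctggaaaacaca
Igtp, chr11:58199502-58199551, plus strand: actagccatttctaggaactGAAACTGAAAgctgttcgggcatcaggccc
The next stretches come from members that did not pass the test at 2 h with either oestrogen, and the last 3 of them from members that rose with both at 24 h.
Isg15, chr4:156200855-156200916, minus strand: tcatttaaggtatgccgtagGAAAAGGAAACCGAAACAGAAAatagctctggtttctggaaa
Irgm1, chr11:48871421-48871470, minus strand: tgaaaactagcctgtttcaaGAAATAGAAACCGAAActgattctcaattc
Oas3, chr5:120777705-120777754, minus strand: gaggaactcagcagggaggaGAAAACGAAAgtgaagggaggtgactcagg
Oas1a, chr5:120907526-120907565, minus strand: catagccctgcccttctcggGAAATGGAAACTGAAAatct
Bst2, chr8:71537567-71537622, minus strand: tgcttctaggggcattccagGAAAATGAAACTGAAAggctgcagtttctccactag
Isg15 carried 3 overlapping cores within its stretch, Gbp3, Irgm1, Oas1a and Bst2 carried 2 overlapping ones each, and Ifit1 and Ifit3 carried 2 separate ones each. With each oestrogen at 2 h, 10 of the 16 members with a core fell and 4 of the 12 tested members with a window but no core fell. Over all genes tested, 23.1% fell with E2 and 23.6% with E3. The median log2 difference at 2 h was -0.70 with a core and -0.74 without for E2, and -0.88 and -0.78 for E3. The GAS letters TTCNNNGAA, a palindrome, were in 8 of the 29 members (27.6%) and in 9.55% of all genes; Oas1a, Bst2, Igtp and Eif2ak2 held both motifs, and in Bst2 they overlapped. The full oestrogen response element, GGTCA and TGACC with 3 bases of any kind between them, was in 0 of the 29 and in 0.074% of all genes. A match is a description of these letters only, and no match speaks of this window alone.

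Levels are given below on a log2 scale relative to each array's 75th percentile of signal, so that a value of 0 is the signal at that percentile; they compare one gene between arrays and not one gene with another. A difference is given with its standard error (SE) from a limma fit of all 15 arrays, 3 in each group, and a gene is called changed at a Benjamini-Hochberg adjusted p under 0.05 over the 20305 genes. Over the arrays, the signal at the 75th percentile was 1053 to 1854 and 63.7% to 80.3% of probes were well above background, the lowest share being that of E3 24 h replicate 2. The uterine genes Hoxa10, Hoxa11, Esr1 and Pgr were well above background on every array. Their level was not constant: on a linear scale their sum was 23.9 to 30.2 in vehicle. At 2 h it was 13.4 to 14.7 with E2 and 13.2 to 14.5 with E3. Of the 4 genes, 2 were called lower and 1 higher with E2 at 2 h, and 3 lower and 1 higher with E3. All vehicle arrays shared a slide that held no treated array. In every comparison with vehicle, treatment and slide therefore cannot be told apart. A scan day was shared by 11 of the 15 arrays. E2 2 h replicate 1 and E3 24 h replicate 2 were scanned together on another day, as were E2 24 h replicate 1 and E3 2 h replicate 1. In a bulk tissue, fewer cells of a type and less RNA per cell cannot be told apart. The files place the probes used for Rsad2 at chr12:24278814-24278873, for Ifit2 at chr19:34277058-34277117, for Cxcl10 at chr5:92334002-92334061 and for Oas3 at chr5:119990944-119991003 (mm7). They place the Isg15 probe at chr17:44534906-44534965, whereas RefSeq has the gene on chromosome 4 (GRCm38.p6), so that probe was named by its accession and gene name and its position was not used. Probes of the Ifit, Oas, Gbp and Mx families can bind near-identical copies, which was not tested here.

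Before any comparison, arrays of the same group differed in these genes. E3 24 h replicate 2 stood above the vehicle mean in 34 of 34 members, with a median difference of 1.26 on the log2 scale, against 0.13 for replicate 1 and 0.41 for replicate 3 of that group. It was the highest of its 3 arrays in 31 of 34 members, while over all genes it was the highest in 33.0%. The distance from the vehicle mean was widest in Oas3 (3.22), Oas2 (3.17), Irf7 (3.14), Zbp1 (3.12), Oasl1 (2.81) and Oas1a (2.80), and narrowest in Igtp (0.12), Ifit2 (0.18) and Irf1 (0.24). E2 24 h replicate 3 was the highest of its group in 30 of 34 members (29.2% of all genes), with a median of 0.61 against -0.09 and -0.16 for replicates 1 and 2. Vehicle replicate 3 was the highest of the vehicle arrays in 24 of 34 (39.9% of all genes), with a median of 0.32 against -0.21 and -0.08. At 2 h, replicate 1 was the highest of its group in 23 of 34 with E3 (36.7% of all genes) and in 21 with E2 (45.1%). E2 2 h replicate 1 shared its slide and scan day with E3 24 h replicate 2. E3 2 h replicate 1 shared both with E2 24 h replicate 1, which was the highest of its group in only 2 of 34 (37.7%). The part of slide and scan day in these ranks was not tested. The median SD within a group was 0.79 over the members and 0.28 over all genes at E3 24 h, 0.44 and 0.20 at E2 24 h, and 0.37 and 0.18 in vehicle. At 2 h it was closer to that of other genes, at 0.20 and 0.17 for E2 and 0.28 and 0.18 for E3. The members' counts and medians at 24 h are therefore given with and without E3 24 h replicate 2 where that array enters the comparison.

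**Figure D1:**
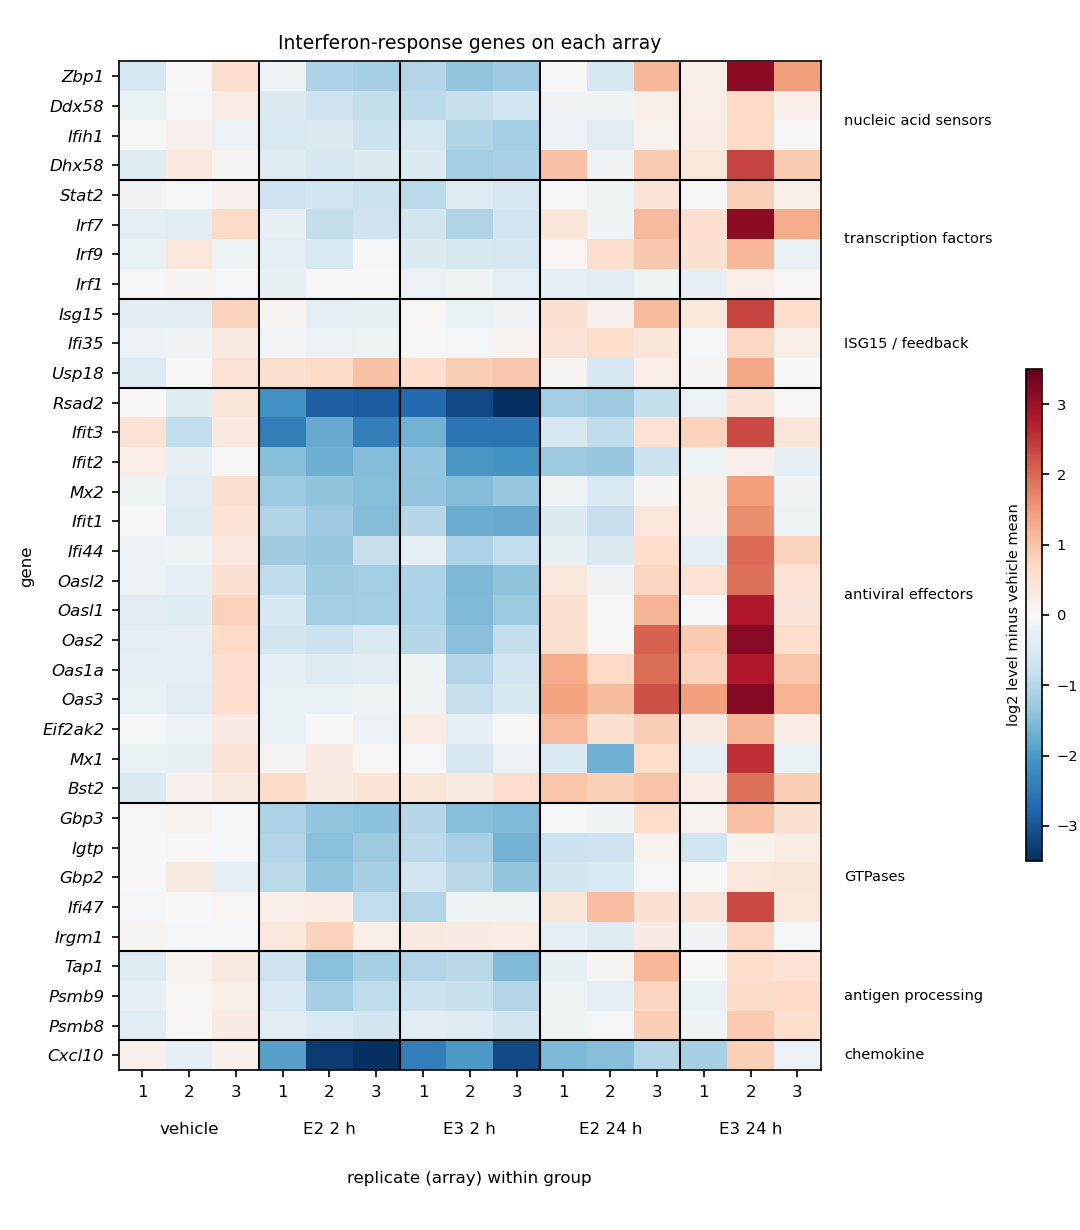
Each cell is the log2 level of one gene on one array minus the mean of the 3 vehicle arrays, for the 34 members measured, grouped by role (rows) and by group and replicate (columns). The 2 h columns are blue in most rows, with Usp18, Irgm1 and Bst2 as rows on the red side, and the column of E3 24 h replicate 2 is red in all 34 rows.

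**Figure D2:**
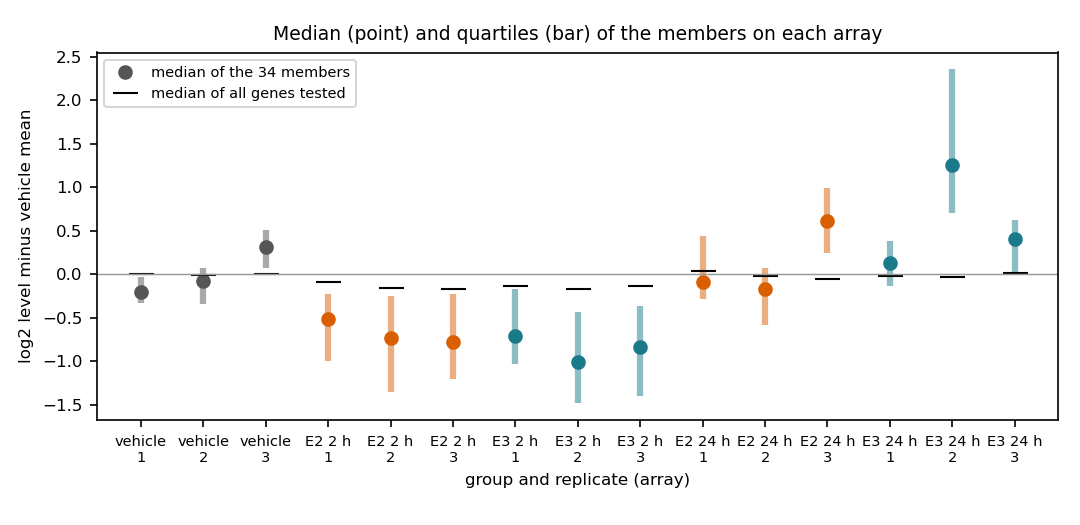
Points are the median over the 34 members of the log2 level minus the vehicle mean on each array, bars run from the lower to the upper quartile, and black dashes are the median of all 20305 genes. All 6 arrays at 2 h lie between -0.52 and -1.01, and E3 24 h replicate 2 lies at 1.26.

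At 2 h, 15 of the 34 members were lower than vehicle with E2 and the same 15 with E3, and 0 were higher with either. The largest falls were in Cxcl10, the chemokine that draws T cells through CXCR3, in Rsad2, which encodes the antiviral protein viperin, and in Ifit3 and Ifit2, whose family of proteins binds viral RNA. Rsad2 was 6.18-fold lower with E2 and 8.83-fold lower with E3, and Cxcl10 was 7.65-fold and 5.79-fold lower. The 15 called with E2 make up 44.1% of the members, where 23.1% of all genes were called lower and 15.6% higher; with E3 the shares over all genes were 23.6% and 16.6%. The median difference over the members was -0.67 with E2, against -0.14 over all genes, and -0.82 with E3, against -0.16. A fall of 2-fold or more was called in 11 members with each oestrogen, against 9.9% of all genes with E2 and 10.8% with E3. All 3 treated arrays lay below all 3 vehicle arrays in 20 members with E2 and in 25 with E3, where 33.9% and 34.2% of all genes did so. Both comparisons use the same vehicle arrays, so the shared 15 are not independent of each other.

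Among the antiviral effectors, 6 of 14 fell with each oestrogen. Rsad2 read -0.08, -0.50 and 0.33 on vehicle arrays 1 to 3, -2.20, -2.93 and -3.003 with E2 and -2.80, -3.23 and -3.65 with E3. Every treated array lay below every vehicle array, and the differences were -2.63 ± 0.29 (limma adjusted p = 2.5e-05) and -3.14 ± 0.29 (6.2e-06). The other Rsad2 probes gave -2.48 and -1.90 with E2 and -2.79 and -2.58 with E3. Ifit3 read 1.47, 0.09 and 1.30 in vehicle, -1.46, -0.81 and -1.44 with E2 and -0.69, -1.58 and -1.61 with E3. Its vehicle replicate 2 was the lowest vehicle array but still above all 6 treated arrays, and the differences were -2.19 ± 0.53 and -2.24 ± 0.53 (limma adjusted p = 0.0058 and 0.0049). Ifit2 read -0.93, -1.41 and -1.14 in vehicle, -2.64, -2.87 and -2.69 with E2 and -2.53, -3.19 and -3.25 with E3, which gave -1.58 ± 0.22 and -1.83 ± 0.22 (limma adjusted p = 0.00014 and 4.6e-05).

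Ifit1 fell less than these. It read -0.10, -0.52 and 0.40 in vehicle, -1.13, -1.33 and -1.60 with E2 and -1.06, -1.80 and -1.85 with E3, a difference of -1.28 ± 0.45 and -1.50 ± 0.45 (limma adjusted p = 0.038 and 0.018). Mx2, a gene of the dynamin-like antiviral GTPases that RefSeq lists as a transcribed pseudogene in the reference strain, read -0.29, -0.51 and 0.44 in vehicle, -1.42, -1.53 and -1.61 with E2 and -1.51, -1.63 and -1.43 with E3. All treated arrays were tightly grouped below the vehicle arrays, at -1.40 ± 0.35 and -1.40 ± 0.35 (limma adjusted p = 0.0072 and 0.0069). Oasl2, a relative of the oligoadenylate synthetases, read 1.63, 1.51 and 2.35 in vehicle, 0.95, 0.60 and 0.62 with E2 and 0.75, 0.26 and 0.42 with E3. Treated and vehicle arrays did not overlap and the differences were -1.11 ± 0.37 and -1.35 ± 0.37 (limma adjusted p = 0.031 and 0.011).

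The remaining 8 effectors did not pass the test at 2 h. Among the oligoadenylate synthetases, whose product switches on the nuclease RNase L, Oas1a differed by -0.39 and -0.63 with E2 and E3, Oas2 by -0.65 and -1.09, Oas3 by -0.20 and -0.50 and Oasl1 by -0.99 and -1.32. A weaker probe of Oas3 gave -0.77 and -1.60. Ifi44 differed by -1.13 and -0.76, and its other probe by -1.86 and -2.29. Mx1 differed by 0.16 and -0.27 and Eif2ak2, the RNA-dependent kinase PKR, by -0.14 and -0.01. Bst2, which encodes tetherin, stood on the positive side at 0.47 and 0.44 (limma adjusted p = 0.28 and 0.31).

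Of the 5 interferon-inducible GTPases, which act on membranes around intracellular pathogens, 3 fell with each oestrogen. Gbp3 (a probe that the files call Gbp4) read 2.04, 2.24 and 2.05 in vehicle, 1.00, 0.74 and 0.68 with E2 and 1.11, 0.62 and 0.57 with E3. Igtp read 3.37, 3.40 and 3.32 in vehicle, 2.35, 1.90 and 2.06 with E2 and 2.46, 2.22 and 1.72 with E3. Gbp2 read 2.55, 2.89 and 2.26 in vehicle, 1.62, 1.21 and 1.41 with E2 and 1.89, 1.59 and 1.21 with E3. In all 3 genes the treated arrays lay below the vehicle arrays, with differences of -1.30 ± 0.25 and -1.34 ± 0.25 for Gbp3, -1.26 ± 0.29 and -1.23 ± 0.29 for Igtp, and -1.16 ± 0.22 and -1.01 ± 0.22 for Gbp2. Their limma adjusted p-values lay between 0.0011 and 0.0046. Ifi47 differed by -0.13 and -0.45 and did not pass. Irgm1, a regulator of the other GTPases, was on the positive side at 0.47 and 0.28 (limma adjusted p = 0.15 and 0.38), and a dim other probe of it gave -1.08 with E3.

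Both genes of peptide supply that fell are encoded within the MHC. Tap1, a subunit of the transporter that carries peptides to MHC class I, read -0.47, 0.09 and 0.30 in vehicle, -0.76, -1.49 and -1.18 with E2 and -1.06, -1.003 and -1.57 with E3. Treated and vehicle arrays did not overlap, and the differences were -1.11 ± 0.35 and -1.18 ± 0.35 (limma adjusted p = 0.023 and 0.017). Psmb9, a catalytic subunit of the immunoproteasome, was at 2.56 ± 0.27 (SD, n = 3) in vehicle, 1.70 ± 0.32 with E2 and 1.71 ± 0.16 with E3, a difference of -0.87 and -0.85 (limma adjusted p = 0.041 and 0.043). Psmb8, another such subunit, differed by -0.52 and -0.49 and did not pass. The chemokine Cxcl10 read -0.31, -0.76 and -0.29 in vehicle, -2.35, -3.79 and -4.03 with E2 and -2.88, -2.47 and -3.62 with E3. E2 2 h replicate 1 was the highest of its group but lay below every vehicle array, and the differences were -2.94 ± 0.51 and -2.53 ± 0.51 (limma adjusted p = 0.00066 and 0.0018).

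Of the 4 nucleic acid sensors, Ddx58 and Ifih1 fell. Ddx58 was at -0.95 ± 0.25 (SD, n = 3) in vehicle, -1.63 ± 0.17 with E2 and -1.75 ± 0.12 with E3, a difference of -0.68 ± 0.18 and -0.80 ± 0.18. Its other 3 probes gave between -0.65 and -1.18. Ifih1 was at 0.15 ± 0.19 in vehicle, -0.45 ± 0.13 with E2 and -0.81 ± 0.31 with E3, a difference of -0.60 and -0.96, but its other probe gave 0.09 and 0.16, so its fall rests on the brighter probe. Dhx58 differed by -0.49 and -0.95 and Zbp1 by -0.80 and -1.22, and neither passed the test. Of the 4 transcription factors, Stat2 fell by 0.72 with E2 and by 0.66 with E3 (limma adjusted p = 0.02 and 0.029), with group means of 0.53 ± 0.14 in vehicle, -0.19 ± 0.05 and -0.13 ± 0.25. Its partner Irf9 differed by -0.30 and -0.54, Irf7, which drives the late phase of interferon synthesis, by -0.61 and -0.79, and Irf1 by -0.09 and -0.23, none past the test.

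The ubiquitin-like modifier Isg15, its remover Usp18 and Ifi35 did not pass the test at 2 h. Isg15 differed by -0.17 and -0.11 and Ifi35 by -0.16 and 0.03. Usp18, which also blocks the type I interferon receptor, read -0.24, 0.18 and 0.68 in vehicle, 0.77, 0.87 and 1.22 with E2 and 0.79, 1.07 and 1.16 with E3. All 6 treated arrays lay above all 3 vehicle arrays, at 0.75 ± 0.35 and 0.80 ± 0.35 (limma adjusted p = 0.11 and 0.087), so Usp18 stood opposite to the 15 genes that fell without passing the test itself. Scaled by the array median, which put the median of all genes at 0.04 (E2) and 0.08 (E3), 9 members fell with E2 and Usp18 passed with E3. That scaling called 20.7% of all genes higher and 15.3% lower for E2, and 24% higher and 14.4% lower for E3. Without E2 2 h replicate 3 the count with E2 was 9, and without vehicle replicate 3 it was 10 with each oestrogen. Of all genes, 18% were lower without E2 2 h replicate 3, and 20% (E2) and 20.5% (E3) without vehicle replicate 3. Within scan day 1 alone, 14 members fell with E2, and 15 fell and Usp18 rose with E3. There 25.1% of all genes were lower with E2, and 24.3% lower and 16.6% higher with E3.

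**Figure D3:**
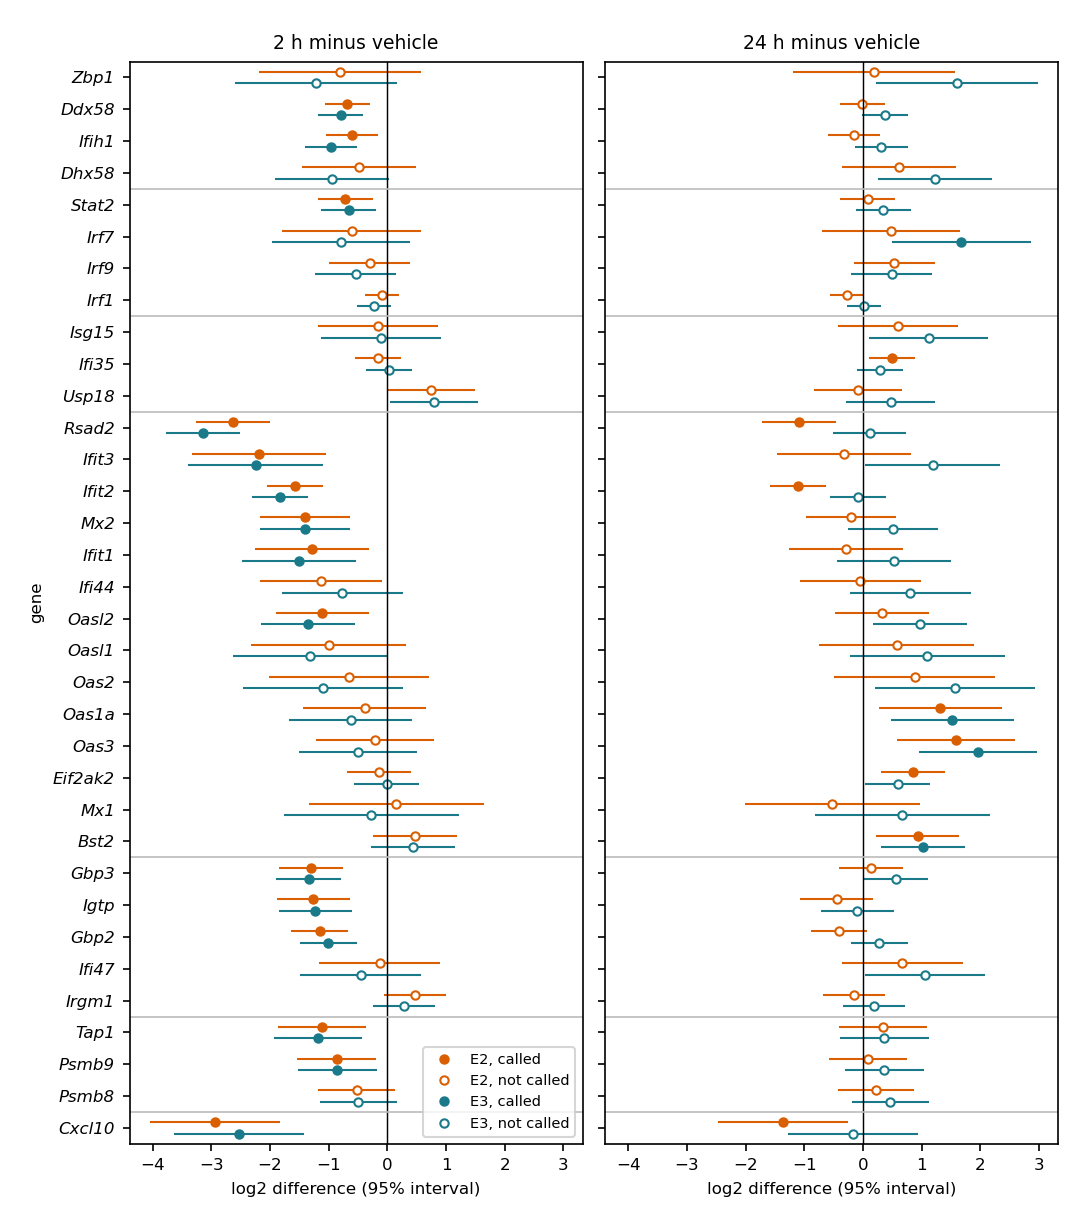
Log2 difference of each member from vehicle at 2 h (left) and 24 h (right), with its 95% interval, for E2 (orange) and E3 (teal); filled points were called at an adjusted p under 0.05 and grey lines separate the roles. At 2 h 15 members are filled below 0 with each oestrogen, and at 24 h 5 are filled above 0 and 3 below with E2, and 4 above with E3.

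Socs1 and Socs3, inhibitors of the pathway, rose at 2 h. In the list of 24 tested ligands, receptors and signalling genes, E2 gave 3 rises (12.5%) and 9 falls (37.5%), against 15.6% and 23.1% of all genes. E3 gave 4 rises (16.7%) and 8 falls (33.3%), against 16.6% and 23.6% of all genes. Socs1, which inhibits JAK kinases, read 0.43, 0.76 and 1.06 in vehicle, 4.65, 4.68 and 4.76 with E2 and 4.56, 4.89 and 4.88 with E3, a rise of 3.95 ± 0.16 and 4.03 ± 0.16 (limma adjusted p = 2.9e-08 and 2.5e-08). Socs3, its relative at cytokine receptors, read 2.03, 2.37 and 2.20 in vehicle, 6.06, 6.43 and 6.29 with E2 and 6.02, 6.10 and 5.97 with E3, a rise of 4.06 ± 0.13 and 3.83 ± 0.13 (3.5e-09 and 7.2e-09). The 2 h arrays of both genes stood far above all others, and by 24 h Socs1 read 0.87, 0.77 and 0.70 with E2 and 0.25, 0.58 and 0.62 with E3, back in the range of vehicle or just below. Socs3 read 2.30, 1.96 and 2.25 with E2 and 1.70, 1.77 and 1.68 with E3 at 24 h, a difference of -0.04 with E2 (limma adjusted p = 0.85) and a difference of -0.49 ± 0.13 with E3 (0.025). All 3 E3 arrays lay below every vehicle array, but that difference did not pass under 7 of 17 alternatives, median scaling and the fit of the compared groups alone among them. At 2 h the difference was negative in 15 of the 24 genes of this list with each oestrogen. The lowest was -1.20 with E2 and -1.08 with E3, in genes not named here. Some parts of the receptor chain, picked for their place in the pathway with their values seen, were lower at 2 h. Tyk2, the kinase of the type I receptor, fell by 0.96 and by 0.87, and the receptor chain Ifnar2 by 0.47 and by 0.46, while Ifnar1 differed by -0.31 and -0.37 and Jak1 by 0.09 and 0.01, neither past the test. Interferon gamma itself, Ifng, differed by -0.79 with E2 (limma adjusted p = 0.053) and fell by 0.99 with E3 (0.02).

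Interferon-induced genes outside the 34 were also more often lower than higher at 2 h. In a list of 49 other interferon-induced genes, E2 gave 20 falls (40.8%) and 1 rise (2.04%), and E3 gave 21 falls (42.9%) and 1 rise (2.04%). All genes were also more often lower, with 23.1% falling and 15.6% rising with E2, and 23.6% and 16.6% with E3. In the list 20 genes fell with both. The list was written with earlier results of these arrays known and is not independent evidence. Iigp1, a GTPase against intracellular parasites, read 2.76, 3.22 and 3.05 in vehicle, 1.48, 0.92 and 0.87 with E2 and 1.45, 0.62 and -0.11 with E3. Gbp5, a guanylate-binding protein gene, read -1.02, -0.41 and -1.02 in vehicle, -2.15, -2.91 and -2.84 with E2 and -2.52, -2.81 and -3.37 with E3. All 6 treated arrays of both genes lay below vehicle, and the falls were 3.79-fold and 5.12-fold for Iigp1 and 3.52-fold and 4.23-fold for Gbp5. The chemokine Cxcl11, a CXCR3 ligand like Cxcl10, was well above background on all 3 vehicle arrays and not on any E3 2 h array. With each E3 2 h array set no lower than its dimmest well-above signal, Cxcl11 was at least 4.95-fold lower there. With E2 only 1 of 3 arrays measured it. Among 19 tested sensors and adaptors, E2 gave 4 rises (21.1%) and 6 falls (31.6%), against 15.6% and 23.1% of all genes. E3 gave 5 rises (26.3%) and 7 falls (36.8%), against 16.6% and 23.6%. Rnf135 and Trim25, ubiquitin ligases that activate RIG-I, fell by 1.48 and by 0.94 with E2 and by 1.36 and by 1.07 with E3, the endosomal RNA receptor Tlr3 fell by 0.92 and by 1.10, and the kinase Ikbke fell by 0.94 and by 1.06. A second Trim25 probe gave 0.68 and 0.94, the opposite direction. Of 16 other antigen-presentation genes only H2-M3 fell (by 0.85 and by 0.89) and only Calr, the chaperone calreticulin, rose (0.65 and 0.71). That is 6.25% in each direction, below the shares of all genes.

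The summed level of pan-leukocyte markers was also lower at 2 h. The summed level of 8 pan-leukocyte markers, on a linear scale relative to the 75th percentile, was 12.6 to 16.8 in vehicle, 7.72 to 11.8 with E2 and 7.36 to 11.55 with E3, below every vehicle array, although 0 of the 8 passed the test with E2 and 1 with E3. For 9 macrophage markers the sums were 17.2 to 21.1, 10.98 to 21.5 and 13.7 to 18.7, and 1 fell with E2 and 0 with E3. Of 13 T, NK and B cell markers, 4 fell with each oestrogen (30.8%), and of 10 dendritic cell markers 0 fell with E2 and 2 with E3. Over all genes 23.1% fell with E2 and 23.6% with E3. The shares of falls in the pan-leukocyte, macrophage and dendritic lists were below these. Of 3 tested haemoglobin and other erythrocyte markers, 3 rose with E2 and 2 with E3, where 15.6% and 16.6% of all genes rose. All 8 leukocyte markers were well above background on all arrays. The part of these shifts in the fall of the interferon-response genes was not tested.

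At 24 h few members differed from vehicle by the test, and they moved in different directions. With E2, 5 of 34 members were higher (14.7%) and 3 lower (8.82%), where 21.1% of all genes were called higher and 22.3% lower. With E3, 4 were higher (11.8%) and 0 lower, where the shares over all genes were 9.7% and 10.7%, so the share of higher members was near that of other genes. The median difference was 0.11 with E2 and 0.52 with E3, against -0.019 and -0.004 over all genes. The oligoadenylate synthetases Oas3 and Oas1a and the tetherin gene Bst2 rose with both oestrogens, Eif2ak2 and Ifi35 rose with E2, and Irf7 rose with E3. Rsad2, Ifit2 and Cxcl10 were still lower with E2. Median scaling, which put the median of all genes at 0.20 (E2) and 0.14 (E3), called 30.5% of all genes higher and 14.9% lower for E2, and 14.8% higher and 6.48% lower for E3.

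Oas3 read -5.11, -5.26 and -4.31 on vehicle arrays 1 to 3, -3.48, -3.78 and -2.67 with E2 and -3.46, -1.67 and -3.67 with E3. Every 24 h array lay above every vehicle array, with differences of 1.59 ± 0.46 (limma adjusted p = 0.015) and 1.96 ± 0.46 (0.015); at 2 h it had read -5.13, -5.11 and -5.04 with E2 and -5.04, -5.70 and -5.45 with E3. Oas1a read -0.22, -0.24 and 0.66 in vehicle, 1.36, 0.76 and 2.01 with E2 and 0.87, 2.86 and 1.03 with E3, after -0.28, -0.39 and -0.30 with E2 and -0.10, -0.97 and -0.61 with E3 at 2 h. Its 24 h arrays were also all above vehicle, at 1.31 ± 0.48 and 1.52 ± 0.48 (limma adjusted p = 0.043 and 0.044). Bst2 read 2.74, 3.37 and 3.54 in vehicle, 3.87, 3.54 and 3.66 with E2 at 2 h and 3.63, 3.53 and 3.81 with E3 at 2 h. At 24 h it read 4.17, 4.04 and 4.22 with E2 and 3.48, 5.14 and 4.09 with E3. Its E2 arrays at 24 h did not overlap vehicle (0.93 ± 0.33, limma adjusted p = 0.037), whereas E3 24 h replicate 1 lay within the vehicle range (1.02 ± 0.33, 0.045). Irf7 read -1.49, -1.56 and -0.52 in vehicle, -1.45, -2.03 and -1.92 with E2 at 2 h and -1.83, -2.25 and -1.87 with E3 at 2 h. At 24 h it read -0.75, -1.35 and -0.05 with E2 and -0.60, 1.95 and 0.12 with E3. For Irf7 the E3 difference was 1.68 ± 0.54 (limma adjusted p = 0.047) with replicate 2 far above the other arrays and replicate 1 within the vehicle range, and the E2 difference was 0.47 (0.51). Eif2ak2 was at 0.34 ± 0.25 (SD, n = 3) in vehicle, 1.19 ± 0.28 with E2 and 0.93 ± 0.53 with E3 at 24 h, a rise of 0.85 ± 0.25 with E2 (limma adjusted p = 0.017) and a difference of 0.59 with E3. Ifi35 was at 1.36 ± 0.28, 1.86 ± 0.11 and 1.65 ± 0.39 in the same order, a rise of 0.50 ± 0.18 with E2 (0.044) and a difference of 0.29 with E3.

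The 3 genes that were lower at 24 h with E2 were among the 4 that had fallen most with each oestrogen at 2 h. Rsad2 read -1.26, -1.36 and -0.91 with E2 at 24 h, below all vehicle arrays, and -0.29, 0.38 and -0.003 with E3, overlapping them. Ifit2 read -2.42, -2.50 and -1.90 with E2 and -1.32, -0.98 and -1.44 with E3, and Cxcl10 read -2.02, -1.95 and -1.47 with E2 and -1.61, 0.38 and -0.66 with E3. With E2 the differences were -1.10 ± 0.29, -1.11 ± 0.22 and -1.36 ± 0.51 (limma adjusted p = 0.0091, 0.0017 and 0.047), and with E3 0.11, -0.09 and -0.18, none past the test. Other Rsad2 probes gave -0.29 and -0.19 with E3.

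The other members that had fallen at 2 h no longer differed from vehicle by the test at 24 h. Ifit3 read 0.38, 0.06 and 1.45 with E2 and 1.77, 3.27 and 1.38 with E3, a difference of -0.32 and 1.19. Ifit1 read -0.55, -0.88 and 0.34 with E2 and 0.07, 1.54 and -0.25 with E3. Mx2 read -0.31, -0.65 and -0.01 with E2 and 0.05, 1.35 and -0.23 with E3. In each of these genes replicate 3 of E2 and replicate 2 of E3 was the highest array of its group. Oasl2 read 2.19, 1.70 and 2.58 with E2 and 2.33, 3.75 and 2.31 with E3. Gbp3 read 2.04, 1.96 and 2.72 with E2 and 2.22, 3.17 and 2.63 with E3, and both genes had their highest 24 h array in E3 replicate 2. Tap1 read -0.28, 0.07 and 1.14 with E2 and -0.05, 0.57 and 0.48 with E3. Igtp read 2.61, 2.65 and 3.48 with E2 and 2.67, 3.48 and 3.63 with E3. Gbp2 read 1.94, 2.03 and 2.51 with E2 and 2.59, 2.97 and 2.99 with E3. Over these 8 genes the differences from vehicle ranged from -0.45 in Igtp with E2 to 1.19 in Ifit3 with E3. The sensors lay between -0.15 (Ifih1) and 0.61 (Dhx58) with E2 and between 0.31 (Ifih1) and 1.60 (Zbp1) with E3. The other Ifih1 probe gave 0.66 with E2, on the opposite side. For Ddx58 the probe used gave -0.01 with E2 and 0.37 with E3, while other probes departed, at 0.28 with E2 and at -0.075 and -0.03 with E3. Stat2 differed by 0.08 and 0.34, Irf9 by 0.53 and 0.49 and Irf1 by -0.27 and 0.01, none past the test. The other Irf1 probe gave -0.42 with E3. Of the remaining effectors, Oas2 differed by 0.88 with E2 and 1.57 with E3, Oasl1 by 0.57 and 1.09, Ifi44 by -0.05 and 0.81 and Mx1 by -0.53 and 0.67, none past the test. The other Ifi44 probe gave -0.06 with E3. Isg15 differed by 0.60 and 1.12, Usp18 by -0.08 and 0.47, Psmb8 by 0.22 and 0.47, Psmb9 by 0.09 and 0.36, Ifi47 by 0.67 and 1.05 and Irgm1 by -0.15 and 0.19.

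The counts at 24 h depended on single arrays, for the members and for all genes. With E3, 1 member (Oas3) was called without E3 24 h replicate 2, and 0 without vehicle replicate 1 or 2. It was 2 members without E3 24 h replicate 3 and 10 without E3 24 h replicate 1. The share of all genes called higher, 9.7% in the main fit, moved as well. It was 5.94% without E3 24 h replicate 2, and 3.45% and 3.43% without vehicle replicates 1 and 2. Without E3 24 h replicate 3 it was 6.88%, and without E3 24 h replicate 1 it was 12.4%. Leaving out any one 2 h array or E2 24 h replicate 1, which enter only the shared estimate of the spread, gave 1 or 2. Over those settings 8% to 9.27% of all genes were higher. Without E3 24 h replicate 2 the median difference over the members was 0.22, and the differences were 1.33 for Oas3, 0.88 for Oas1a, 0.57 for Bst2 and 0.95 for Irf7. Within scan day 1, which also leaves out that array, 0 were called with E3 and 8 with E2 (5 higher, 3 lower). There 5.27% of all genes were higher and 6.05% lower with E3, and 19.3% and 22.5% with E2. With E2 the count was 2 without vehicle replicate 1 or 2, and 3 without E2 24 h replicate 1 or 3. It was 5 without E2 24 h replicate 2 or E2 2 h replicate 2. Over these E2 settings 16.8% to 20.6% of all genes were higher and 17.6% to 21.6% lower. Rsad2 and Ifit2 passed under all 17 alternatives run on single genes for that comparison, which leave out only arrays of the groups compared, while Cxcl10 missed the threshold under 11 of them, Oas1a and Bst2 under 8 each and Oas3 under 4.

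**Figure D4:**
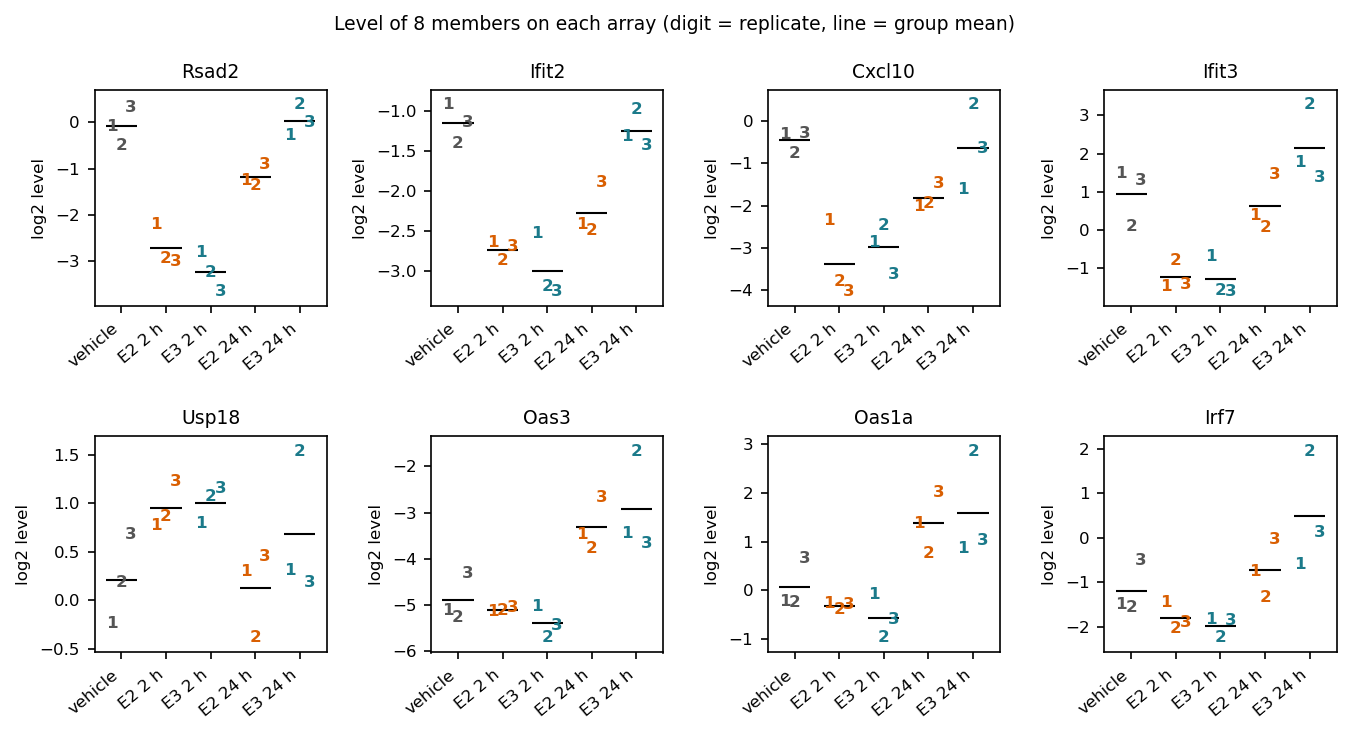
Log2 level, relative to each array's 75th percentile, of 8 members on every array; digits are the replicates of a group, lines are group means, and each panel has its own scale. Rsad2, Ifit2, Cxcl10 and Ifit3 are lowest at 2 h, Usp18 at 2 h lies above vehicle, and Oas3, Oas1a and Irf7 are highest at E3 24 h replicate 2.

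Interferon epsilon rose at 24 h. Ifne read -4.83, -5.35 and -4.84 in vehicle, -1.05, -2.07 and -0.75 with E2 and -2.35, -0.57 and -3.97 with E3, above every vehicle array in each case. The rise was 3.72 ± 0.72 with E2 and 2.71 ± 0.72 with E3 (limma adjusted p = 0.0014 and 0.023), and at 2 h the differences were -0.56 and -0.18, not past the test. With E3 the rise of Ifne did not pass without vehicle replicate 1 or 2 or without E3 24 h replicate 2. Ifng fell by 1.51 with E2 (limma adjusted p = 0.0017) and differed by -0.29 with E3. Over the signalling list, E2 gave 3 rises (12.5%) and 5 falls (20.8%), against 21.1% and 22.3% of all genes. There E3 gave 1 rise (4.17%) and 2 falls (8.33%), against 9.7% and 10.7%. Of the 49 other interferon-induced genes, E2 gave 9 rises (18.4%) and 4 falls (8.16%), below the shares of all genes, and E3 gave 9 rises (18.4%, against 9.7% of all genes) and 0 falls. Without E3 24 h replicate 2, E3 gave 5 rises and 1 fall in that list, and 0 rises and 1 fall in the signalling list. In that setting 5.94% of all genes rose and 5.35% fell. Ifi27l2a read 3.15, 3.60 and 3.17 in vehicle and 4.34, 5.98 and 4.50 with E3, a rise of 1.63 ± 0.50 that did not pass without E3 24 h replicate 2 (1.11). Gbp5 fell by 1.02 with E2. Cxcl11 was not well above background on any 24 h array. With E2 it was at least 3.41-fold lower than vehicle, with each array set no lower than its dimmest well-above signal. With E3 no such bound is given, because replicate 2 (-5.22) lay within the vehicle range of -5.89 to -4.73, while replicates 1 and 3 read -9.23 and -8.65. The differences of the signals as read were -2.82 with E2 (limma adjusted p = 0.022) and -2.56 with E3 (0.059, not called). Among 16 antigen-presentation genes, 6 rose with E2 (37.5%, against 21.1% of all genes). With E3, 2 rose (12.5%, against 9.7%), or 1 without E3 24 h replicate 2. Calr rose by 1.53, the peptide-loading factor Pdia3 by 1.05 and the proteasome activator Psme2 by 0.82 with E2, and Psme2 by 0.53 with E3.

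Leukocyte markers differed between the arrays at 24 h as well. The pan-leukocyte sum was 8.48 to 13.2 with E2, and 11.8, 24.2 and 26.9 on E3 24 h replicates 1 to 3. The macrophage sum was 20.4 to 24.6 with E2, and 26.4, 51.2 and 46.7 on the E3 arrays. With E3, 4 of the 9 macrophage markers rose, or 1 without E3 24 h replicate 2, where 9.7% and 5.94% of all genes rose. On E3 24 h replicates 1 to 3 the dendritic cell sum was 33.8, 45.9 and 69.5. On the same arrays the T, NK and B cell sum was 2.36, 4.05 and 4.345. The eosinophil, neutrophil and mast cell sum was 3.64, 5.385 and 17.7 there, and the medians over the members were 0.13, 1.26 and 0.41. Of 13 T, NK and B cell markers, 7 fell with E2 and 0 with E3. Of 10 dendritic cell markers, 5 fell with E2 and 1 with E3, with summed levels of 15.4 to 29.7 with E2 and 33.8 to 69.5 with E3. Over all genes at 24 h, 22.3% fell and 21.1% rose with E2, and 10.7% fell and 9.7% rose with E3. All 3 tested erythrocyte markers rose with each oestrogen. Their part in the levels of the interferon-response genes was not tested.

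**Figure D5:**
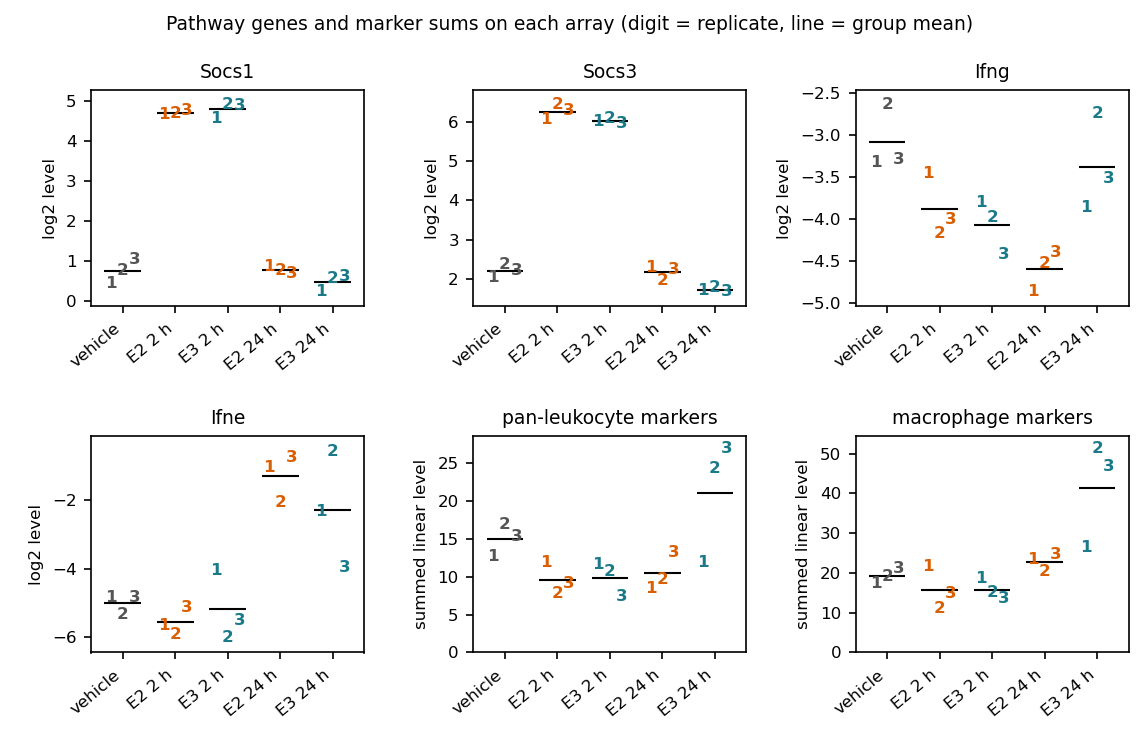
Log2 level of Socs1, Socs3, Ifng and Ifne, and the summed linear level of 8 pan-leukocyte and 9 macrophage markers relative to the 75th percentile, on every array; digits are replicates and lines are group means. Socs1 and Socs3 stand apart at 2 h, Ifne is higher at 24 h, and the macrophage sum is highest on E3 24 h replicates 2 and 3.

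E2 and E3 were compared directly at the matched dose at each of the 2 times. At 2 h the test called 0 of 34 members, and 0% of all genes in either direction; at an unadjusted p under 0.05 it gave 0 members and 3.69% of all genes. For the probes used, the differences E2 minus E3 ran from -0.40 (Cxcl10) to 0.52 (Rsad2), with a median of 0.13. Other probes departed in Ifi44 (0.43, against -0.37 for the probe used), Ifih1 (-0.07 against 0.36) and Psmb8 (0.14 against -0.03). Dim other probes departed in Dhx58 (-0.31 against 0.46) and Irgm1 (1.41 against 0.19). The 95% interval was -0.11 to 1.15 for Rsad2, -0.22 to 0.73 for Ifit2, -0.51 to 0.59 for Gbp3 and -1.51 to 0.70 for Cxcl10, so each interval holds 0 and a difference of either sign, and the missed test does not show that E2 and E3 act alike on these genes.

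At 24 h, 2 members were lower with E2 than with E3 and 0 higher, where 6.78% of all genes were lower and 8.96% higher. Ifit2 differed by -1.03 ± 0.22 (limma adjusted p = 0.0091) and Rsad2 by -1.21 ± 0.29 (0.016), and in both genes all E2 arrays lay below all E3 arrays. Other Rsad2 probes gave -1.07 and -0.75 and the other Ifit2 probe -1.29. Differences that were larger than these or close to them in size, and not past the test, were in Ifit3 (-1.51), Zbp1 (-1.41), Irf7 (-1.20), Mx1 (-1.20) and Cxcl10 (-1.18). The difference was negative in 31 of 34 members, with a median of -0.49 against -0.02 over all genes, and that median was -0.15 without E3 24 h replicate 2. Other probes of Ifih1 and Irf1 gave 0.02 and 0.18, on the positive side. Ifit2 and Rsad2 were called without that array too, but neither was called in the fit of the compared groups alone, where 0.793% of all genes were lower and 0.99% higher, or with the slide as a fixed block among treated arrays, where 0% of all genes were called; no slide held arrays of both groups. Rsad2 was also lost with the mean of its probes, without E2 24 h replicate 1 or 2 and within scan day 1. The count was 8 without E3 24 h replicate 1 and 4 without E2 24 h replicate 3. In those settings 6.47% and 4.89% of all genes were lower, and 7.75% and 8.02% higher. The difference of the differences, 24 h less 2 h, was called in the same 2 members and 0 others of the 34, where 2.37% of all genes were called lower, at -1.72 ± 0.41 for Rsad2 and -1.28 ± 0.31 for Ifit2 (limma adjusted p = 0.03 and 0.033). Leukocyte markers were lower with E2 than with E3 at 24 h as well. The difference was negative in 8 of 8 pan-leukocyte markers (median -0.95, 3 called), 8 of 9 macrophage markers (-0.93, 3 called), 10 of 10 dendritic cell markers (-0.996, 3 called) and 13 of 13 T, NK and B cell markers (-1.04, 3 called). Without E3 24 h replicate 2 these lists had 0, 2, 3 and 1 called, where 9.36% of all genes were lower. The part of these markers in the members' differences was not tested. Socs3 was on the other side, higher with E2 by 0.45 ± 0.13 (limma adjusted p = 0.037), a call that was lost or turned under 13 of 18 alternatives.

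From 2 h to 24 h most members rose. With E2, 18 of 34 were higher at 24 h than at 2 h and 1 was lower, where 30.6% of all genes were higher and 21.7% lower; with E3, 27 were higher and 0 lower, where the shares were 29.9% and 19.8%. The median difference was 0.97 with E2 and 1.53 with E3, against 0.13 and 0.19 over all genes. With E3 the largest rises were in Ifit3 (3.43 ± 0.53), Rsad2 (3.25 ± 0.29), Zbp1 (2.81 ± 0.64) and Oas2 (2.66 ± 0.63). With E2 they were in Ifit3 (1.86), Oas3 (1.79), Oas1a (1.70) and Cxcl10 (1.58). Irgm1 was the member that fell with E2, by 0.62, and Usp18 differed by -0.83 with E2 and -0.33 with E3, not past the test. All 4 sensors rose with E3, and 1 of them, Ddx58, with E2. Each of these comparisons shares its 2 h arrays with the comparison of 2 h with vehicle, so the rise and the earlier fall are not independent. Without E3 24 h replicate 2 the E3 count was 23, of which 22 rose, with a median of 1.15. There 30.1% of all genes were higher and 18.8% lower. Without E2 2 h replicate 2 the E2 count was 12, where 26.5% of all genes were higher and 18.5% lower. Within scan day 1 the counts were 22 with each oestrogen, 21 of them rises with E2 and all 22 with E3. There 28.5% of all genes were higher with E2 and 28.2% with E3. With the slide as a fixed block among treated arrays the E3 count was 4, where 0.281% of all genes were higher and 0.379% lower; no slide held both E3 2 h and E3 24 h arrays. Macrophage markers rose over the same interval, 9 of 9 with E3 (median 1.19) and 3 of 9 with E2 (0.32), as did 7 of 8 pan-leukocyte markers with E3 (0.93) and 0 of 8 with E2 (0.07). Without E3 24 h replicate 2 the E3 counts were 9 and 2, and the part of these markers in the members' rise was not tested.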

How the data were processed

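Total RNA labelled with Cy3 of 15 uterus samples was measured on one-colour Agilent arrays, 1 array a sample. The authors deposited scanner output in which each spot's intensity had been processed by Feature Extraction 9.5.3.1, per the file headers, with spatial detrending of the background and multiplicative detrending; the version is 9.5 per the submitters' processing notes. From the 43379 non-control spots of an array, log2 of the processed signal minus the array's 75th percentile was taken, outlier-flagged spots were left out (53 of 41174 probes had none left on some array), and repeated spots were averaged. Probes were named through RefSeq accessions, then symbols and older symbols (assembly GRCm38.p6); Mx1 and Mx2 were matched by symbol. A gene was tested where, in at least 1 group, its brightest probe passed the scanner's background test on all 3 arrays (20305 genes, 15790 with a symbol).

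One limma 3.58.1 fit (R 4.3.3) held 1 mean per group, with Benjamini-Hochberg adjustment over all genes; scripts were tested on simulated data. Replicate numbers did not pair the arrays. Alternatives were other scalings, backgrounds, filters, probe rules, blocks for slide and scan day, array weights and leaving out each array. All members are named; values on every array are given for members called against vehicle with a change of 2-fold or more, and Usp18 was added after its values were seen. Of each pathway list up to 4 called genes of the largest change were named, other probes where they departed. Tyk2, Ifnar2, Ifnar1 and Jak1 were added outside that rule, with their values seen. The members, lists and tests were chosen with earlier results of these data known.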

Additional observations from a re-analysis of the deposited data

Results flagged for a closer look

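At 24 h, the level of Ifit2 was lower with E2 than with E3 by a log2 difference of -1.03, and that of Rsad2 by -1.21. They stand out because the contrast of E2 with E3 changed between the times: 24 h less 2 h was -1.28 for Ifit2 (limma adjusted p = 0.033) and -1.72 for Rsad2 (0.03). Leaving out E3 24 h replicate 2, the 24 h differences were -0.89 and -1.03. Neither passed in the fit of the compared groups alone (limma adjusted p = 0.079 for Ifit2 and 0.059 for Rsad2) or with the slide as a fixed block (0.3 and 0.43), under which 0% of all genes were called.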

How the results depend on the processing

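Counts are members called of 34. Scaling by the array median gave 9 for E2 at 2 h against vehicle (main 15). For E2 at 24 h (main 8), no filter on dim probes gave 4, the slide as a random block 4 (correlation 0.144) and the replicate number as a block 5. Of all genes, 14%, 18.6% and 20.3% were higher and 15.1%, 19.5% and 21.6% lower in that order. For E3 at 24 h (main 4), the block of replicate numbers, no filter, the slide as a random block and the scan day as a fixed block gave 1 each. In that order 7.87%, 4.75%, 5.79% and 5.61% of all genes were higher. The fit of the compared groups alone (0.00492% of all genes higher, 0% lower) and scan day 1 alone (5.27% higher, 6.05% lower) gave 0 each. For E2 minus E3 at 24 h (main 2), the mean of probes and scan day 1 alone gave 1 each, and the compared groups alone and the slide as a fixed block gave 0 (all genes, 0.793% lower and 0% called). Array weights gave 23 for E3 at 2 h (34.7% of all genes lower) and 30 for E2 at 24 h minus 2 h (38.8% higher), and the slide as a fixed block gave 4 for E3 at 24 h minus 2 h (main 27; 0.281% of all genes higher, 0.379% lower). Under that block the Socs3 difference of E2 minus E3 at 24 h reversed to -0.123 (main 0.45). The causes were not tested. Leaving out each array in turn gave 9 to 18 for E2 at 2 h, 10 to 18 for E3 at 2 h, 2 to 8 for E2 at 24 h, 0 to 10 for E3 at 24 h, 1 to 8 for E2 minus E3 at 24 h, 12 to 26 for E2 at 24 h minus 2 h and 23 to 30 for E3 at 24 h minus 2 h; E2 minus E3 at 2 h gave 0 throughout. Among the 2 h falls with E2, Ifih1 and Ifit1 each missed the threshold under 9 of 17 alternatives run on single genes, which leave out only arrays of the groups compared. Replicate numbers did not pair arrays (same-number correlations -0.22 to 0.21). The number of arrays limits the precision.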

Other observations

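Other cell type markers were counted as well. Over all genes, 15.6% rose and 23.1% fell with E2 at 2 h, and 16.6% and 23.6% with E3. At 24 h the shares were 21.1% and 22.3% with E2, and 9.7% and 10.7% with E3. Of 6 smooth muscle markers, 0 passed the test at 2 h, while 4 rose with E2 and 6 with E3 at 24 h. Of 6 uterine stromal markers, E2 gave 1 rise and 3 falls at 2 h and E3 gave 1 rise and 4 falls. Of 6 endothelial markers, 4 fell with E2 and 1 with E3 at 24 h. Of 7 uterine epithelial markers, 2 rose with E2 (28.6%) and 1 with E3 (14.3%) at 24 h, near the shares of all genes. Of 8 tested eosinophil, neutrophil and mast cell markers, 1 rose with each oestrogen at 2 h. The difference was negative in 7 of these 8 markers with each, with medians of -0.52 (E2) and -0.90 (E3). Their part in the levels of the interferon-response genes was not tested.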
